A study of Homo sapiens with 7 samples.

Results

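The expression of 10 genes that carry cystine into the cell, build and use glutathione, and run the thioredoxin system was followed in MDA-MB-231, a human cell line from triple-negative breast cancer. The 10 genes are SLC7A11, SLC3A2, GCLC, GCLM, GPX4, TXNRD1, TXN, PRDX1, SRXN1 and NQO1. They were taken by symbol from a gene count table of 57773 rows, each symbol matched 1 row, and all 10 were among the 16198 genes that passed the filter on low counts. The comparison sets 2 RNA-seq libraries labelled KD against 3 libraries labelled parent, all of MDA-MB-231. The labels do not spell out KD, and give no time, dose or separate culture for a library, so the p-values here reflect the scatter among these libraries alone, and that scatter may be technical. The treatment text shared by all samples describes APE1-knockout cells that received wild-type or mutant APE1 from a doxycycline-inducible lentiviral vector. It does not say which libraries, if any, came from such cells, or whether the KD libraries come from 1 clone. The series has 2 further samples from chromatin immunoprecipitation (1 input, 1 APE1), not analysed here.

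APE1, encoded by APEX1, is a base excision repair enzyme with a separate role as a redox activator of transcription factors. Cells import cystine through an exchanger made of the light chain SLC7A11 and the heavy chain SLC3A2, and reduce it to cysteine. Cysteine enters glutathione through glutamate-cysteine ligase, whose catalytic subunit is GCLC and whose modifier subunit is GCLM, and GPX4 spends glutathione on reducing lipid peroxides in membranes. In the parallel thioredoxin system the reductase TXNRD1 reduces thioredoxin (TXN) at the cost of NADPH, thioredoxin reduces the peroxiredoxin PRDX1, and SRXN1 repairs overoxidised peroxiredoxin. NQO1 reduces quinones, and it is, with GCLC, GCLM, SLC7A11, TXNRD1, PRDX1 and SRXN1, a textbook target of the transcription factor NRF2.

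The 5 libraries held 14601078 to 18049386 counts. No pair of libraries within a group agreed within sampling noise (chi-square divided by its degrees of freedom, 4.03 to 9.68), so each was kept as a replicate. APEX1, the gene of the protein that the series is about, was lower in the libraries labelled KD: KD replicates 1 and 2 had 640 and 753 counts, parent replicates 1 to 3 had 1936, 1936 and 2413, and the edgeR adjusted p was 5.9e-05. Of 7 markers of a mesenchymal breast line all were tested, 4 were lower and 1 was higher in KD, and their summed level was 6538 to 6695 CPM (counts scaled to library size) in KD and 7525 to 7953 CPM in parent. Of 7 luminal markers 5 were tested and 3 were higher (CDH1, KRT8 and ERBB2). EPCAM (log2 fold change -0.34, edgeR adjusted p = 0.1215) and GATA3 (0.089, 0.408) were not called, and EPCAM went the other way. The receptor genes ESR1 and PGR had at most 2 counts in a library. The summed luminal level was 885.1 to 890.7 CPM in KD and 752.1 to 776.1 CPM in parent, most of it from KRT8 (means of 673.0 and 578.1 CPM). Some of these calls were lost in an alternative fit: the adjusted p reached 0.2185 for ERBB2, 0.0690 for KRT8, 0.128 for AXL and 0.139 for MSN, and stayed under 0.05 for CDH1, CD44, ZEB1 and SPARC. The part of these shifts in the results below was not tested. Of the 5 white blood cell markers, 3, among them the defining gene PTPRC, were at 0 counts in all 5 libraries. The other 2 were detected: CD68 stood at 128.9 ± 0.956 CPM in KD and 103.6 ± 12.7 CPM in the parent libraries (edgeR adjusted p = 0.0612), and CD14 was lower at 5.12 ± 0.711 against 8.42 ± 1.49 CPM (edgeR adjusted p = 0.0391, up to 0.1805 over the fits).

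Of the 10 genes, 6 were lower in KD (SLC7A11, GCLC, GCLM, TXNRD1, PRDX1 and NQO1), 1 was higher (GPX4), and 3 did not pass the test (SLC3A2, TXN and SRXN1). Over all tested genes, 21.5% passed the same test, which is the quasi-likelihood test of edgeR with p-values adjusted over the whole table and a threshold of 0.05, with 12.4% called lower and 9.15% called higher. The median log2 fold change was -0.32 over the 10 genes and 0.00085 over all tested genes. In 7 genes both KD libraries lay below each parent library, against 26.1% of all tested genes, and in GPX4 both lay above, against 25.3%, so that the groups did not overlap in 8 genes, against 51.4%. Several calls were lost when 1 library was left out: without parent replicate 2, 5 of the 10 genes passed the test. Only the calls of SLC7A11 and TXNRD1 held in each alternative fit. Leaving out a KD replicate left 1 KD library, and all 10 genes kept their direction there. A lost call did not need a changed difference: the log2 fold change of PRDX1 was -0.22 without either KD replicate. In bulk RNA, fewer cells with a transcript and less transcript per cell cannot be told apart.

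**Figure D1:**
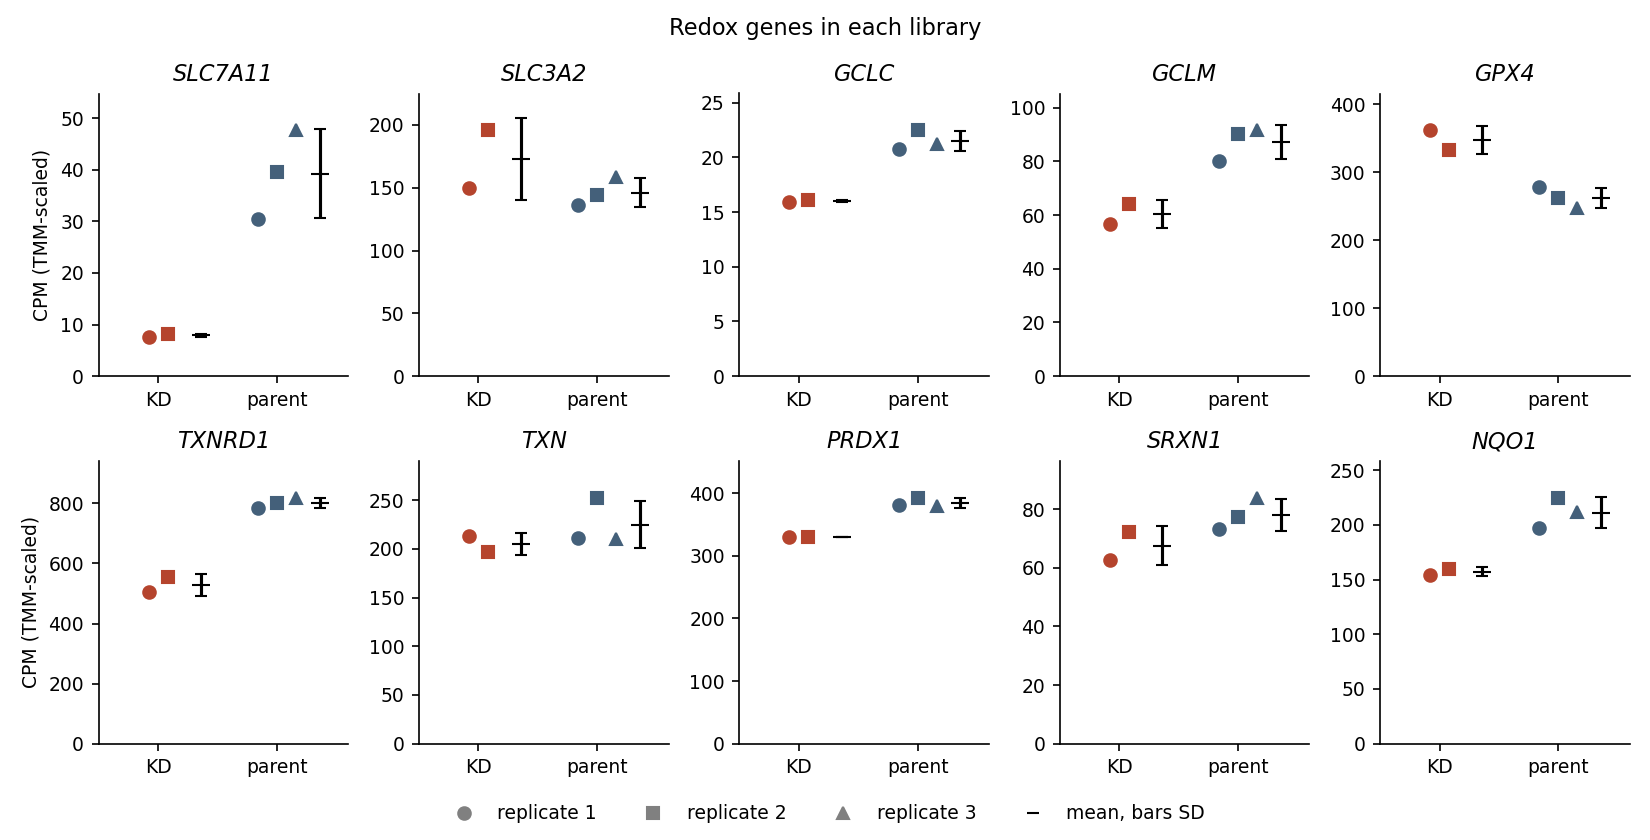
Level of each of the 10 redox genes in each library, in CPM on TMM-scaled libraries, with an axis from 0 for each gene. Points are libraries, with shapes for replicate numbers, and the black marks give the mean and SD of each group (n = 2 for KD, n = 3 for parent). SLC7A11 shows the widest relative gap between the groups, GPX4 has both KD libraries above the parent libraries, and the groups overlap in SLC3A2 and TXN.

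The sequences before the transcription starts of 4 of the genes are shown because the genes differ in their calls (GCLM and TXNRD1 lower, GPX4 higher, SLC3A2 not called) and because the series concerns APE1 at G-quadruplexes, folds of guanine-rich DNA. They come from RefSeq (GRCh38.p14, which is not the hg19 build of the counts), where 8 of the 10 genes had an entry, with 13 windows of 300 bases in all (250 before and 50 after a start). SLC7A11 and PRDX1 had no entry. Each line gives the 250 bases before a start, 5′ to 3′ on the strand of the gene. GCLM is at chr1:93909431-93909680 (minus strand), TXNRD1 at chr12:104286782-104287031 (plus strand, the later of 2 windows), SLC3A2 at chr11:62881449-62881698 (plus strand, the last of 3 windows) and GPX4 at chr19:1103744-1103993 (plus strand, the first of 3 windows). Capitals in GCLM, TXNRD1 and SLC3A2 mark the core of the antioxidant response element, the site that NRF2 binds, searched as TGACNNNGC and TGAGNNNGC on both strands. Capitals in GPX4 mark a G-quadruplex pattern, here cytosine runs and so guanine runs on the opposite strand. The shown stretches of GCLM and SLC3A2 hold this pattern too, beginning at -115 and at -128 from the start, and it is left in lower case there.
GCLM: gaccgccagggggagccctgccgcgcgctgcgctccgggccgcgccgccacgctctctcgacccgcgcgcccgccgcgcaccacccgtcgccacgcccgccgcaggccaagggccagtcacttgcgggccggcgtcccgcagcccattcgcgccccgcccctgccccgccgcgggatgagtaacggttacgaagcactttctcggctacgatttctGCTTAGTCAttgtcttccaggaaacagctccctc
TXNRD1: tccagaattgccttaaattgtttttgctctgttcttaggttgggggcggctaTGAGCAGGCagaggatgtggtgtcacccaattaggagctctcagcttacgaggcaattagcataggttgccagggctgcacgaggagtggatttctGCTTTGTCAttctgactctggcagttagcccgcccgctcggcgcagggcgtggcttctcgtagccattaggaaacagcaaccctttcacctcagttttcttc
SLC3A2: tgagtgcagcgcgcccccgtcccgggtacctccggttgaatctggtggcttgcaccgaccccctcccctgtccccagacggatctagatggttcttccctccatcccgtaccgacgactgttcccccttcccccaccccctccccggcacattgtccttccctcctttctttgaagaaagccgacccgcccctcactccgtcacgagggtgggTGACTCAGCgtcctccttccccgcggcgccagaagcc
GPX4: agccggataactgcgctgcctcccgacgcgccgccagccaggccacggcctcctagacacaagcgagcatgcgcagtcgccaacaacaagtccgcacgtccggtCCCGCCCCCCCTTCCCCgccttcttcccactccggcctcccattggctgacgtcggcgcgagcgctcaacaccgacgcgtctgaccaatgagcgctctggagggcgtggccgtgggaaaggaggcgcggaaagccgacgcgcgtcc

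The antioxidant response element core was found in 6 of the 13 windows, in GCLM, NQO1, SLC3A2 and TXNRD1, and in 29.1% of all 35116 windows of the table. In GCLM the marked match began 34 bases before the start (at -34), and another began at -8 and ran past the start. In the shown window of TXNRD1 the matches began at -198 and -102. In SLC3A2 the match at -37 also contains the AP-1 site TGACTCA, searched as TGACTCA and TGAGTCA on both strands and found in 4.95% of all windows. The G-quadruplex pattern, 4 runs of at least 3 guanines with gaps of 1 to 7 bases on either strand, was found in 7 of the 13 windows, in GCLM, GPX4, NQO1 and SLC3A2, and in 25.0% of all windows. The first and second windows of GPX4 overlap and hold the same match, which was counted in both, so the windows are not independent. The windows of GCLC, TXN and SRXN1 held none of these motifs, and sequence outside the windows was not searched. A match describes letters, not binding.

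SLC7A11 (ENSG00000151012), the light chain that transports cystine, had the widest difference of the 10 genes. Its level was 7.65 and 8.14 CPM in KD replicates 1 and 2, from 113 and 127 counts, and 30.5, 39.6 and 47.6 CPM in parent replicates 1, 2 and 3, from 478, 580 and 852 counts. Both KD libraries were far below each parent library, and the parent libraries differed more from each other than the KD libraries did. The mean was 7.90 ± 0.345 CPM in KD and 39.2 ± 8.54 CPM in the parent libraries, a 4.97-fold lower level (log2 fold change -2.31 ± 0.20, SE, edgeR adjusted p = 0.000528), which leaves 20.1% of the parent level. Of the 16198 tested genes, 365 had a lower fitted log2 fold change, genes at 0 in KD included. SLC7A11 passed the test in each of 10 alternative fits, with adjusted p of at most 0.00730. Its antisense transcript SLC7A11-AS1 had 0 counts in both KD libraries and 0, 3 and 7 counts in the parent libraries.

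SLC3A2 (ENSG00000168003), the heavy chain that brings SLC7A11 and other light chains to the membrane, gave no call. It stood at 149.5 and 195.7 CPM in the KD libraries and at 136, 143.9 and 158.5 CPM in the parent libraries. KD replicate 1 lay within the parent range and KD replicate 2 above it. The log2 fold change of 0.24 ± 0.12 (SE) did not pass the test (edgeR adjusted p = 0.199), with a 95% interval of -0.04 to 0.52 that excludes a fall of the size seen in SLC7A11. Of the other light chains that pair with SLC3A2, 4 of 6 were tested and 1 was lower, SLC7A6 (56.6 ± 3.11 in KD against 73.3 ± 4.39 CPM in parent, edgeR adjusted p = 0.0158). This call was lost without KD replicate 1 (edgeR adjusted p = 0.0953), within 0.00353 to 0.0953 over all fits. The large neutral amino acid carrier SLC7A5, picked after its values were seen, stood at 704 ± 130 and 650 ± 71.3 CPM (edgeR adjusted p = 0.577).

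Both subunits of glutamate-cysteine ligase, which catalyses the first step of glutathione synthesis, were lower in KD. The catalytic subunit GCLC (ENSG00000001084) stood at 15.9 and 16.1 CPM in the KD libraries and at 20.8, 22.5 and 21.2 CPM in the parent libraries. The groups did not overlap, and KD had 74.5% of the parent level (log2 fold change -0.42 ± 0.079, SE, edgeR adjusted p = 0.0106). The modifier subunit GCLM (ENSG00000023909), which lowers the feedback of glutathione on the enzyme, stood at 56.7 and 64.2 CPM in KD and at 80.0, 90.2 and 91.5 CPM in parent. These groups did not overlap either, and KD had 69.3% of the parent level (log2 fold change -0.53 ± 0.089, SE, edgeR adjusted p = 0.00702). The GCLC call was lost without KD replicate 1 (edgeR adjusted p = 0.0708), KD replicate 2 (0.0574) or parent replicate 2 (0.0502), within 0.0101 to 0.0708 over all fits, and the GCLM call without KD replicate 1 (0.0508), the highest of its fits.

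The next enzymes of the pathway did not pass the test. Glutathione synthetase (GSS) stood at 101.7 ± 0.612 CPM in KD and 101.1 ± 3.52 CPM in the parent libraries (edgeR adjusted p = 0.930), and glutathione reductase (GSR) at 60.2 ± 2.71 and 59.7 ± 2.66 CPM (edgeR adjusted p = 0.921). Both were picked after their values were seen. Of the 19 genes of glutathione synthesis, recycling, breakdown and export, 1 was higher, 2 were lower and 16 did not pass, with 0 to 1 higher and 2 to 3 lower when 1 library was left out (0 higher without KD replicate 1 or parent replicates 2 or 3). GGT1, which splits extracellular glutathione, was lower at 17.1 ± 1.08 against 36.5 ± 4.40 CPM (edgeR adjusted p = 0.00103), and so was ABCC1, an exporter of glutathione and its conjugates, at 92.1 ± 2.83 against 122.8 ± 6.91 CPM (edgeR adjusted p = 0.00510).

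GPX4 (ENSG00000167468), the selenium-containing peroxidase that reduces lipid peroxides, was the single gene of the 10 that was higher in KD. It stood at 361.5 and 332.5 CPM in the KD libraries and at 277.6, 261.3 and 247.9 CPM in the parent libraries. Each KD library was above each parent library. The means were 347 ± 20.5 and 262.3 ± 14.9 CPM, a 1.32-fold higher level (log2 fold change 0.40 ± 0.065, SE, edgeR adjusted p = 0.00587). The call was lost without KD replicate 1, at an adjusted p of 0.0523, the highest of its fits. Among the other glutathione peroxidases and transferases, 4 of 17 tested genes were higher, 2 were lower and 11 did not pass. These counts depended on single libraries: 0 were higher without KD replicate 1, 1 without parent replicate 2, and 2 without KD replicate 2 or without parent replicate 3, and 1 to 4 were lower. The secreted peroxidase GPX3 was lower, at 98.8 ± 1.32 in KD against 130.6 ± 8.11 CPM in the parent libraries (edgeR adjusted p = 0.00587), and this call held in each alternative fit. GPX1, the abundant cytosolic peroxidase, was higher at 296.5 ± 8.49 against 255.1 ± 2.04 CPM (edgeR adjusted p = 0.0145), a call lost without KD replicate 1 (0.134), KD replicate 2 (0.0647) or parent replicate 2 (0.0535), within 0.00137 to 0.134.

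Of the 4 thioredoxin system genes among the 10, the reductase had the largest log2 fold change. TXNRD1 (ENSG00000198431) stood at 503.7 and 555.3 CPM in the KD libraries and at 783.8, 802.4 and 818.3 CPM in the parent libraries. The gap between the groups was wider than the range within either group. The means were 529.5 ± 36.5 and 801.5 ± 17.3 CPM, a 1.51-fold lower level (log2 fold change -0.60 ± 0.058, SE, edgeR adjusted p = 0.000779), and the call held in each of the 10 alternative fits, with adjusted p of at most 0.00578. TXNRD1 is a selenoprotein like GPX4, which moved in the opposite direction. In RefSeq the gene spans the ribosomal protein pseudogene RPL18AP3, which had 2162 to 2745 counts in a library, and the gene EID3, which had 3 to 15 counts. The use of strand in counting is not given in the sources used here, so how reads were divided where these overlap is uncertain, as it is for the antisense or long non-coding RNAs that overlap GCLC, SRXN1 and NQO1 in RefSeq.

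Its substrate thioredoxin gave no call. TXN (ENSG00000136810) stood at 212.7 and 197.2 CPM in the KD libraries and at 211.4, 252.3 and 210.3 CPM in the parent libraries. KD replicate 1 lay within the parent range, and parent replicate 2 was above the other 4 libraries. The log2 fold change was -0.13 ± 0.090 (SE, edgeR adjusted p = 0.348), with a 95% interval of -0.35 to 0.081. The 7 thioredoxin pseudogenes in the table had at most 7 counts in a library, so few reads were assigned to these copies.

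PRDX1 (ENSG00000117450), the cytosolic peroxiredoxin that thioredoxin reduces, was lower by a small amount. It stood at 330.7 and 330.5 CPM in the KD libraries and at 381.2, 392.5 and 379 CPM in the parent libraries. KD had 86.0% of the parent level (log2 fold change -0.22 ± 0.044, SE, edgeR adjusted p = 0.0148). The call was lost without KD replicate 1 (edgeR adjusted p = 0.0945), KD replicate 2 (0.0937) or parent replicate 2 (0.0581), within 6.2e-05 to 0.0945 over all fits. MMACHC, which overlaps PRDX1 in RefSeq, had 199 to 274 counts in a library. SRXN1 (ENSG00000271303), the sulfiredoxin that repairs peroxiredoxins, stood at 62.8 and 72.2 CPM in KD and at 73.1, 77.2 and 83.8 CPM in parent. The groups did not overlap, though KD replicate 2 lay close to parent replicate 1, and the log2 fold change of -0.21 ± 0.089 did not pass the test (SE, edgeR adjusted p = 0.146), with a 95% interval of -0.42 to 0.0031.

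The other genes of the thioredoxin, peroxiredoxin and methionine sulfoxide list moved both ways: of 19 tested, 3 were higher and 3 lower, and 1 to 2 higher and 1 to 3 lower when any 1 library was left out. Nucleoredoxin (NXN), a thioredoxin-like protein, was higher at 124.9 ± 3.50 in KD against 77.8 ± 5.75 CPM in the parent libraries (edgeR adjusted p = 0.00101). Thioredoxin-like 1 (TXNL1) was lower at 32.0 ± 4.21 against 49.7 ± 2.31 CPM (edgeR adjusted p = 0.00454). The mitochondrial pair did not pass the test: TXN2 stood at 58.4 ± 2.83 and 56.1 ± 2.17 CPM (edgeR adjusted p = 0.605), and TXNRD2 at 12.7 ± 0.0199 and 12.9 ± 0.712 CPM (edgeR adjusted p = 0.870). Both were picked after their values were seen.

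NQO1 (ENSG00000181019), the quinone reductase, was lower in KD. It stood at 154.2 and 160.0 CPM in the KD libraries and at 196.8, 224.8 and 212.3 CPM in the parent libraries. No KD library reached the lowest parent library, and KD had 74.4% of the parent level (log2 fold change -0.43 ± 0.065, SE, edgeR adjusted p = 0.00480). The call was lost without KD replicate 1, at an adjusted p of 0.0528, the highest of its fits. Of NRF2 and its regulators, 0 of 14 tested genes were higher and 3 were lower (NFE2L2, MAFF and MAFK), a share of 21.4% beside 21.5% of all tested genes. Leaving out 1 library gave 1 to 4 lower, with MAFF alone called without KD replicate 1, where MAFK had an edgeR adjusted p of 0.0528. NFE2L2, the gene for NRF2, stood at 92.6 ± 5.39 in KD and 109.7 ± 1.80 CPM in the parent libraries (log2 fold change -0.24 ± 0.057, SE, edgeR adjusted p = 0.0236). This call was lost without KD replicate 1 (edgeR adjusted p = 0.165) and without either of parent replicates 2 (0.0935) and 3 (0.0630), within 0.0161 to 0.165. MAFF, a small MAF protein that pairs with NRF2, was lower at 28.3 ± 2.91 against 61.0 ± 2.57 CPM (edgeR adjusted p = 0.000317), and the inhibitor KEAP1, picked after its values were seen, stood at 84.2 ± 10.5 and 92.1 ± 4.67 CPM (edgeR adjusted p = 0.354).

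Other textbook NRF2 targets moved both ways. Of 20 tested, 5 were higher, 3 were lower and 12 did not pass, with a median log2 fold change of 0.06. Leaving out 1 library gave 2 to 5 higher and 1 to 3 lower, the fewest without KD replicate 1. Aldose reductase (AKR1B1) was higher at 1148 ± 106 in KD against 595.9 ± 24.6 CPM in the parent libraries (edgeR adjusted p = 0.000255), as was the epoxide hydrolase EPHX1 at 112.2 ± 9.15 against 81.6 ± 2.93 CPM (edgeR adjusted p = 0.00432). The aldo-keto reductase AKR1C3 was lower at 4.62 ± 0.552 against 10.3 ± 2.10 CPM (log2 fold change -1.15, edgeR adjusted p = 0.00937), a call lost without KD replicate 2 (0.0604), and its reads may be shared with close copies of the AKR1C family. The other 2 lower genes, chosen after their values were seen, were the heme transporter SLC48A1 (log2 fold change -1.26, edgeR adjusted p = 0.0135) and OSGIN1 (-0.49, 0.0473), with adjusted p up to 0.0853 and 0.207 over the fits. The heme oxygenase HMOX1, picked after its values were seen, stood at 20.03 ± 2.13 and 20.02 ± 1.14 CPM (edgeR adjusted p = 0.9996).

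**Figure D2:**
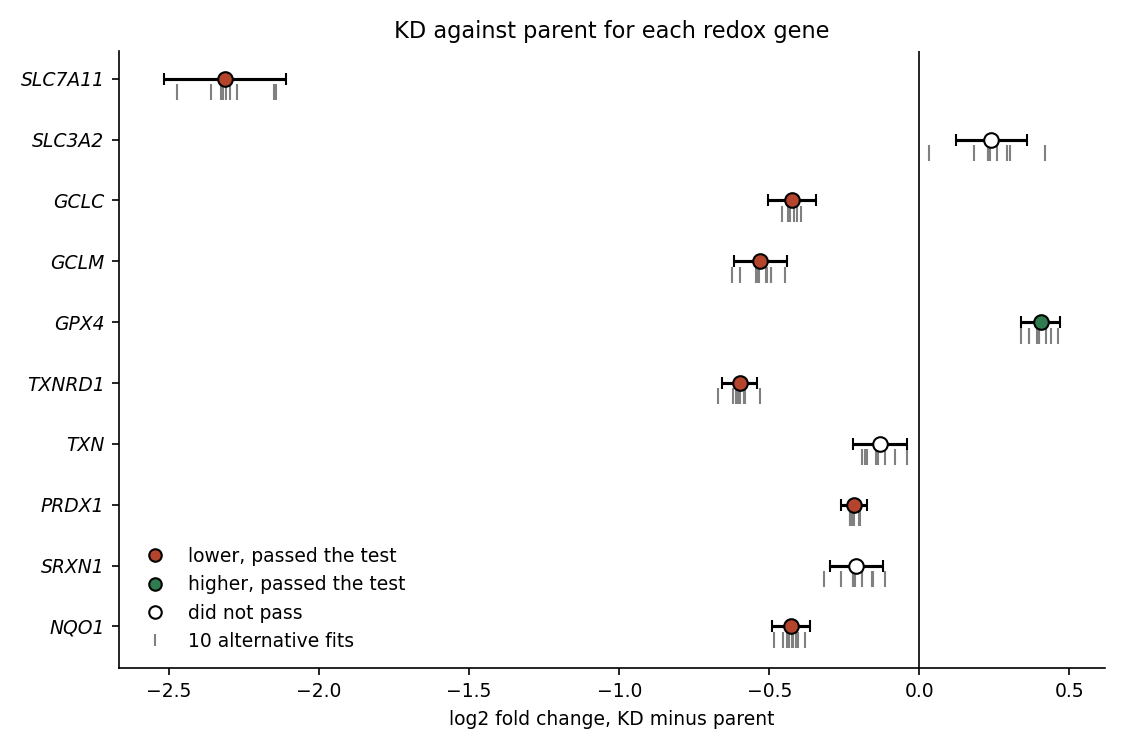
Log2 fold change of KD minus parent for each of the 10 redox genes (points, bars SE, edgeR), with grey ticks below each point for the 10 alternative fits. Filled points passed an adjusted p of 0.05 and open points did not. No alternative moved a gene across 0, and the ticks of SLC3A2 run from 0.03 to 0.42.

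The authors' deposited table, a DESeq2 comparison, gave the same directions, with a log2 fold change of -2.32 ± 0.23 (SE) for SLC7A11, -0.61 ± 0.060 for TXNRD1 and 0.39 ± 0.071 for GPX4. For the 10 genes its values equal those of DESeq2 as run here, 1 of the 10 alternative fits, so it adds no separate evidence. Of the 10 genes, 7 had an adjusted p under 0.05 in the authors' deposited table, all 7 of them also called by edgeR, beside 13.6% of the 19816 genes given an adjusted p there.

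Genes that act together were also compared as a ratio of their counts within each library, which does not depend on the scaling between libraries. The log2 ratio of SLC7A11 to SLC3A2 was -4.29 and -4.59 in the KD libraries and -2.15, -1.86 and -1.74 in the parent libraries, a 5.74-fold lower ratio in KD. The log2 ratio of TXNRD1 to TXN was 1.24 and 1.49 in KD and 1.89, 1.67 and 1.96 in parent, a 1.39-fold lower ratio. In both pairs the KD and parent libraries did not overlap. For the subunits of glutamate-cysteine ligase, the log2 ratio of GCLC to GCLM was -1.91 ± 0.12 in KD and -2.02 ± 0.082 in parent, and the libraries overlapped. The log2 ratio of SRXN1 to PRDX1 was -2.30 ± 0.14 in KD and -2.30 ± 0.11 in parent, and its difference of 0.0060 changed sign without KD replicate 2 (-0.10) and without either of parent replicates 1 (-0.03) and 2 (-0.02). With 2 against 3 libraries the exact two-sided permutation test cannot go below p = 0.2, the value of the first 2 ratios (0.4 adjusted over the 4 ratios), and it gave p = 0.4 for GCLC to GCLM and p = 0.8 for SRXN1 to PRDX1 (0.533 and 0.8 adjusted).

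**Figure D3:**
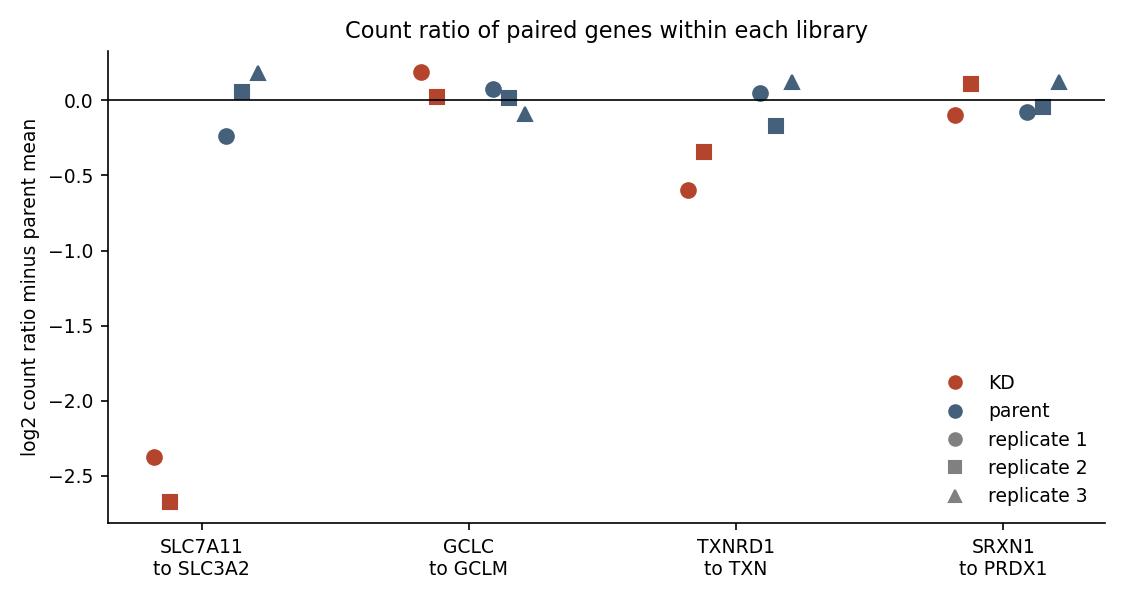
Log2 ratio of the counts of paired genes in each library, less the mean of the parent libraries for that pair. Points are libraries, red for KD and blue for parent, with shapes for replicate numbers. Both KD libraries lie below the parent libraries for SLC7A11 to SLC3A2 and for TXNRD1 to TXN, and the groups overlap for the other pairs.

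The genes around the 10 were described in 12 lists that leave the 10 out. Of 194 tested list genes, 32 were higher, 35 were lower and 127 did not pass, so that 34.5% were called beside the 21.5% of all tested genes. The counts fell to 9 higher and 22 lower without KD replicate 1, and to 15 and 22 without parent replicate 2. Of 11 genes of cystine and cysteine supply, 2 were higher and 4 lower, and 1 to 2 higher and 3 to 4 lower when 1 library was left out. SLC1A1, a carrier of glutamate and cysteine, had no count in KD and 5.32 ± 0.492 CPM in the parent libraries, at least 53.5-fold lower against a floor of 3 counts over both KD libraries. SLC6A6, the taurine transporter, was lower at 68.8 ± 10.6 against 120.7 ± 16.5 CPM (edgeR adjusted p = 0.00701), and the lysosomal cystine exporter CTNS was higher at 26.2 ± 0.364 against 19.0 ± 0.0898 CPM (edgeR adjusted p = 0.00397). Cystathionine gamma-lyase (CTH), which makes cysteine from cystathionine and was picked after its values were seen, stood at 5.72 ± 0.430 and 5.98 ± 0.407 CPM (edgeR adjusted p = 0.787).

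Of 19 genes of NADPH supply, the reductant of TXNRD1 and NQO1, 4 were higher, 3 were lower and 12 did not pass. Leaving out 1 library gave 0 to 3 higher and 2 to 3 lower, with 0 higher without KD replicate 1 and 1 without parent replicate 2. The mitochondrial malic enzyme ME2, which prefers NAD over NADP, was lower at 22.5 ± 1.04 in KD against 42.1 ± 2.31 CPM in the parent libraries (edgeR adjusted p = 0.000423). The mitochondrial isocitrate dehydrogenase IDH2 was higher at 54.5 ± 6.54 against 35.5 ± 4.09 CPM (edgeR adjusted p = 0.0106). Of 21 further genes tied to ferroptosis, the cell death by lipid peroxides that GPX4 prevents, 4 were higher and 5 lower, and 3 to 4 higher and 3 to 6 lower when 1 library was left out. GCH1, which starts the synthesis of the antioxidant tetrahydrobiopterin, was higher at 23.7 ± 2.62 against 14.2 ± 0.267 CPM (edgeR adjusted p = 0.00228), and so was the reductase POR at 100.4 ± 8.23 against 68.7 ± 4.11 CPM (edgeR adjusted p = 0.00380). The lipoxygenase ALOX5 had no count in KD and 5.01 ± 1.10 CPM in the parent libraries, at least 50.4-fold lower. ACSL4, which places polyunsaturated fatty acids in membranes and was picked after its values were seen, stood at 246.1 ± 2.71 and 246.3 ± 15.2 CPM (edgeR adjusted p = 0.992).

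**Figure D4:**
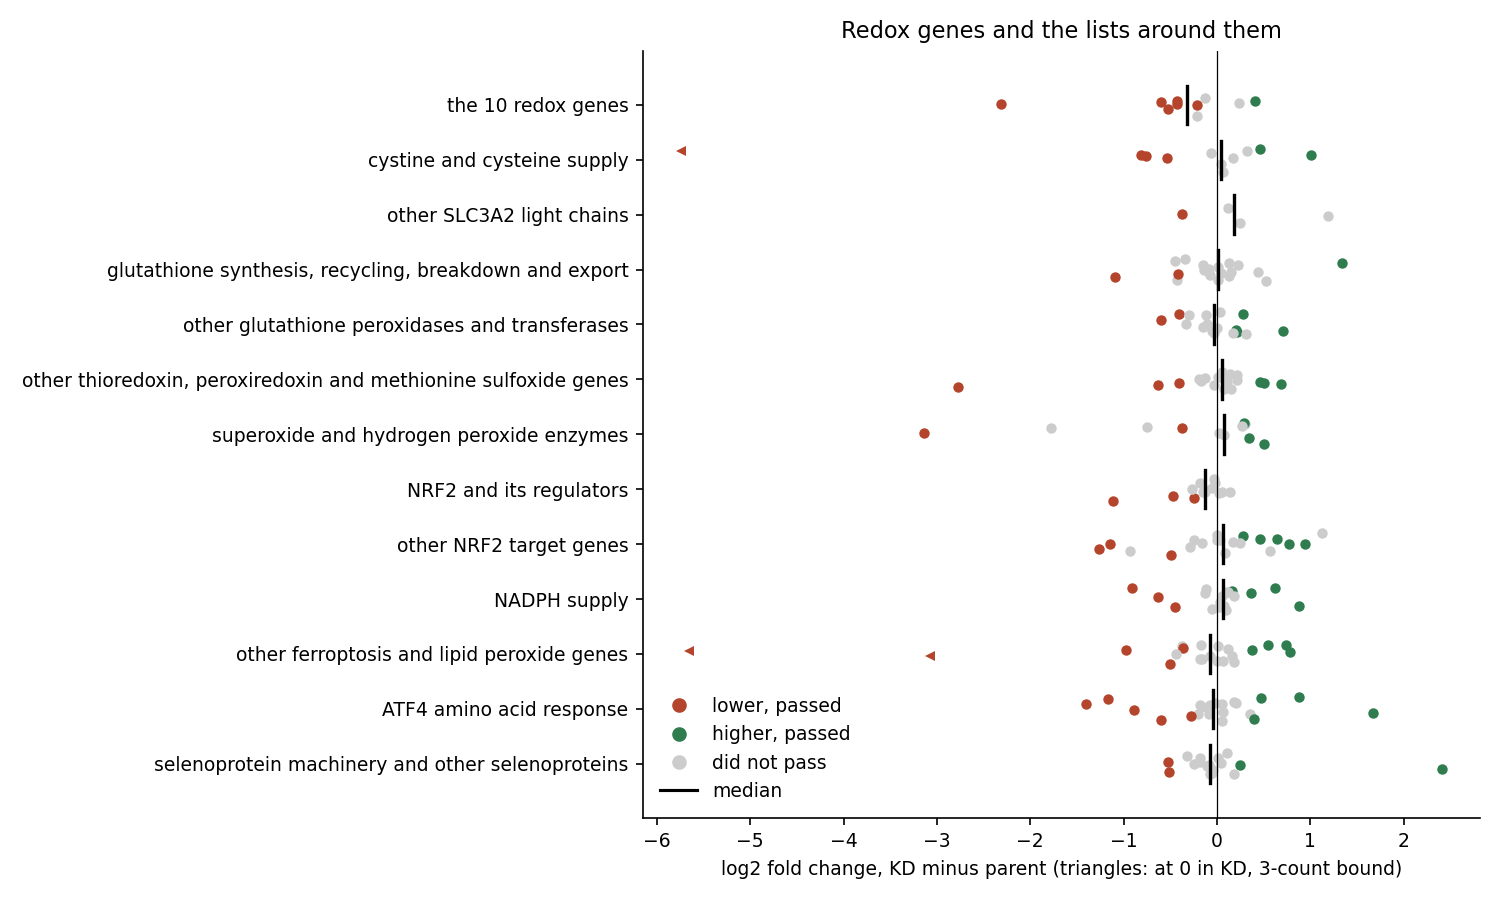
Log2 fold change of KD minus parent for the 10 redox genes and for the tested genes of the 12 lists around them, 1 point per gene, with the list median as a black bar. Red and green points passed the edgeR test as lower and higher, and triangles are genes with no count in KD, drawn at their 3-count bound. The median of the 10 genes is -0.32, and the list medians lie between -0.13 and 0.18.

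The genes whose profile over the 5 libraries was nearest to that of SLC7A11, by Euclidean distance of centred log2 CPM among 11722 tested genes of at least 5 CPM, were LRRC8C (distance 0.355), CADPS2 (0.413) and AKAP12 (0.419). LRRC8C, a subunit of volume-regulated anion channels, stood at 3.66 ± 0.0955 in KD and 16.4 ± 1.44 CPM in the parent libraries. AKAP12, a scaffold for protein kinase A, stood at 20.02 ± 0.0607 and 96.6 ± 7.02 CPM. Nearest to TXNRD1 were USP25 (0.0359), RPRD1A (0.0647) and TNFRSF10A (0.0689), the last a death receptor for TRAIL, at 22.7 ± 1.35 and 35.5 ± 0.671 CPM. These distances rest on 5 libraries, all of which share the step between KD and parent.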

How the data were processed

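RNA-seq of 2 KD and 3 parent samples was analysed, grouped by sample title. The gene table deposited by the authors holds whole numbers. They were taken to be estimated counts deposited by the authors, which is an assumption, since no source used here states how reads were counted. STAR, DESeq2 and hg19 are named without versions, per the submitters' processing notes, while the counting tool, annotation and strand setting were not given in the sources used here. In addition, the authors' deposited comparison gives for each gene, per the file headers, a p-value and its adjusted value, a test score, the log2 fold change, its error, and a mean signal over libraries. The deposited transcript table was not used, since no map from transcripts to genes was given.

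Counts were filtered with filterByExpr (minimum count 10, minimum total 15), scaled with TMM factors and tested with the quasi-likelihood test of edgeR 4.0.16 (R 4.3.3), with a group term alone, 3 residual degrees of freedom and Benjamini-Hochberg adjustment over 16198 genes. The standard error is the log2 fold change divided by the root of F. Levels are CPM on TMM-scaled libraries, mean ± SD (n = 2 KD, n = 3 parent). CPM values are not per length, so levels are compared within a gene only. The code was tested on simulated counts. Ratios were tested with scipy 1.17.1. Alternatives were the size factors of DESeq2 in edgeR, library totals alone, DESeq2 1.42.0, no filter on low counts, a replicate block and leaving out each library.

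The 10 genes, the lists and the tests were chosen with earlier results of these data known. Named genes are the 10, APEX1, the called genes of smallest adjusted p in each list (up to 4), and the 3 nearest profiles of SLC7A11 and TXNRD1; not all of these are described, and genes picked otherwise are marked. Depth limits low genes: a level of 0 in KD allows up to 0.0994 CPM, 3 counts over both libraries, for counting error only.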

Additional observations from a re-analysis of the deposited data

How the results depend on the processing

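The direction of each of the 10 redox genes was the same in all 10 alternative fits, and the calls of SLC7A11 and TXNRD1 held in each. Leaving out 1 library gave 2 to 7 called genes of the 10, with 0 to 1 higher and 2 to 6 lower. The log2 fold changes then ran from -0.46 to -0.39 for GCLC, -0.62 to -0.45 for GCLM, 0.34 to 0.46 for GPX4, -0.23 to -0.20 for PRDX1 and -0.48 to -0.38 for NQO1, each of which lost its call in at least 1 of these fits; fewer samples leave fewer degrees of freedom. The log2 ratio difference of SRXN1 to PRDX1 ran from -0.10 to 0.11 and so changed sign. Over all genes, 3485 passed the test, 1482 higher and 2003 lower, and leaving out 1 library gave 1823 to 3383, with 553 to 1413 higher and 1270 to 1970 lower. In the 12 lists such fits called 9 to 30 higher and 22 to 32 lower. DESeq2 called 976 genes higher, against 1482 (the cause was not tested), and it called the same 7 of the 10 genes. Of 430 values of 43 called list genes under the alternatives, 372 kept their call and 58 lost it, none with a change of direction. Size factors, library totals and the filter changed no call of the 10 genes.

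The replicate block, which uses the numbers shared by KD and parent, called SLC3A2 higher (log2 fold change 0.29, edgeR adjusted p = 0.0378), so that 2 of the 10 genes were higher, and 3940 genes in all. It changed no other call of the 10 genes. The labels do not say that a number marks a shared culture or batch. With 2 shared numbers the deviations of same-numbered samples correlated at 0.087 and -0.018 across genes. The deviations of 2 KD libraries mirror each other, so these values cannot decide whether same-numbered samples shared a batch. The block left 1 residual degree of freedom. With 2 and 3 libraries a group, the calls of GCLC, GCLM, GPX4, PRDX1 and NQO1 depended on single libraries. Their log2 fold changes kept their direction over all fits. The range was -0.23 to -0.20 for PRDX1 and -0.46 to -0.39 for GCLC. It was wider for GCLM (-0.62 to -0.45), GPX4 (0.34 to 0.46) and NQO1 (-0.48 to -0.38).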

Other observations

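Of 11 tested superoxide and hydrogen peroxide enzymes, 3 were higher and 2 lower, and leaving out 1 library gave 0 higher (without KD replicate 1) to 5 higher (without parent replicate 1) and 1 to 2 lower. The extracellular superoxide dismutase SOD3 was lower at 0.427 ± 0.0300 in KD against 3.83 ± 0.901 CPM in the parent libraries (edgeR adjusted p = 0.00103), and catalase (CAT) was higher at 108 ± 0.331 against 85.5 ± 4.58 CPM (edgeR adjusted p = 0.00925), a call lost without KD replicate 1 (0.0574), within 0.00147 to 0.0574.

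Of the ATF4 amino acid response, a programme that also includes SLC7A11 among its known targets, 4 genes were higher, 5 lower and 13 did not pass. Leaving out 1 library gave 1 to 4 higher and 1 to 4 lower, with 1 higher without KD replicate 1 and 1 lower without parent replicate 2. ATF4 itself stood at 103.6 ± 9.90 in KD and 109.2 ± 5.14 CPM in the parent libraries (edgeR adjusted p = 0.529), and the cystine-sensitive glutathione-degrading enzyme CHAC1, a known ATF4 target, at 2.16 ± 0.848 and 1.496 ± 0.545 CPM (edgeR adjusted p = 0.397). Both were picked after their values were seen. The transcription factor CEBPB was higher at 307.1 ± 4.34 in KD against 167.3 ± 19.7 CPM (edgeR adjusted p = 0.00100). Among the 5 lower genes, DDIT4 stood at 65.3 ± 9.34 in KD against 146.5 ± 41.4 CPM (edgeR adjusted p = 0.0133). Its log2 fold change was -1.34 to -0.93 over all fits. The DDIT4 call was lost without KD replicate 2, where 1 KD library was left and the log2 fold change was -1.03. PSAT1 stood at 26.5 ± 4.61 against 40.2 ± 3.62 CPM (edgeR adjusted p = 0.0158), a call lost without parent replicate 2 or KD replicate 1. Without KD replicate 1, which left 1 KD library, its log2 fold change was -0.44, against -0.60 with all libraries.

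A further list held the selenoprotein machinery and some selenoproteins, while others, such as GPX1 and GPX3, were counted in the lists above. Of its tested genes, 2 were higher, 2 lower and 13 did not pass. Leaving out 1 parent library gave 1 to 2 higher and 1 lower. The deiodinase DIO2 was higher at 210.2 ± 42.3 in KD against 39.4 ± 13.5 CPM in the parent libraries (edgeR adjusted p = 0.00112), and LRP8, a receptor that takes up the selenium carrier selenoprotein P, was lower at 42.4 ± 0.450 against 60.4 ± 2.88 CPM (edgeR adjusted p = 0.00321).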
